A study of Homo sapiens with 32 samples.

Results

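The 10 genes described here encode enzymes that remove superoxide and peroxides, with the copper chaperones that serve them. They are the superoxide dismutases SOD1 and SOD2, the copper chaperones CCS and ATOX1, catalase (CAT), the glutathione peroxidases GPX1 and GPX4, and the peroxiredoxins PRDX1, PRDX2 and PRDX3. They were chosen by name, with earlier results of these data known. All 10 were found among the 22610 gene entries of the table and passed the filter on low values. RNA-Seq was carried out on SK-N-BE(2), a human neuroblastoma cell line, exposed either to cannabidiol (CBD, 20 μM, dissolved in ethanol) or to the ethanol vehicle alone (0.1%). Cells were taken after 3, 6, 12 and 24 h, with 4 cultures for each treatment and time and 32 samples in all. Every culture, vehicle included, therefore received ethanol, and the data come from 1 cell line. The labels do not say whether the 4 cultures of a group were grown on separate days, so p-values measure only the spread between these cultures. Levels are FPKM, fragments per kilobase of transcript scaled to the mapped reads of a sample, and can be compared between genes because they are taken per length.

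Superoxide is a by-product of mitochondrial respiration and of several oxidases. Superoxide dismutases convert it to hydrogen peroxide, SOD1 in the cytosol with copper and zinc and SOD2 in the mitochondrial matrix with manganese, and CCS delivers copper to SOD1 while ATOX1 carries copper to the ATPases of the secretory pathway. Hydrogen peroxide is then removed by catalase in peroxisomes, by glutathione peroxidases at the expense of glutathione, and by peroxiredoxins, which are re-reduced through thioredoxin.

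Promoter sequence was read from the RefSeq table of GRCh38.p14, as the 250 bases before the transcription start. The table held 13 such windows for 8 of the 10 genes; SOD1 and PRDX1 had no entry. Both strands were searched for the core of the antioxidant response element, TGACNNNGC, which transcription factors of the NRF2 family recognise, and for the GC box, GGGCGG, which SP1 recognises. The element core lay in 10.9% of the 35116 windows of all genes and in a window of 1 of the 8 genes, CCS, starting 65 bases upstream. A GC box lay in 42.6% of all windows and in at least 1 window of 7 of the 8 genes, all but CCS. The shares count single windows, while a gene with several windows counted if any of them matched, so these figures differ in unit. The 3 windows below are shown because CCS alone held the element core and because PRDX2 and PRDX3 were lower with CBD at 24 h. Capitals mark the element core in CCS and the GC boxes in PRDX2 and PRDX3. A match in these letters is a description of the sequence and not a bound site.
CCS (chr11:66592935-66593184, plus strand): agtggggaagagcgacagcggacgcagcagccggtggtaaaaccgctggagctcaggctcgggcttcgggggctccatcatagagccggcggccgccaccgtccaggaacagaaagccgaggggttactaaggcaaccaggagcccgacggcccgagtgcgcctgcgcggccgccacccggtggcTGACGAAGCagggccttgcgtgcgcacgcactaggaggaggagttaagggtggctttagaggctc
PRDX2 (chr19:12801801-12802050, minus strand): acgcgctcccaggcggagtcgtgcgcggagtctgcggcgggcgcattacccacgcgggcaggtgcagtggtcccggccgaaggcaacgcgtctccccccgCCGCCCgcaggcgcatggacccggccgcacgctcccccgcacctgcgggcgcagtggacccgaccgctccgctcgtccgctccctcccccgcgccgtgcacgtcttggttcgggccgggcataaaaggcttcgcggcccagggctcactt
PRDX3 (chr10:119178813-119179062, minus strand): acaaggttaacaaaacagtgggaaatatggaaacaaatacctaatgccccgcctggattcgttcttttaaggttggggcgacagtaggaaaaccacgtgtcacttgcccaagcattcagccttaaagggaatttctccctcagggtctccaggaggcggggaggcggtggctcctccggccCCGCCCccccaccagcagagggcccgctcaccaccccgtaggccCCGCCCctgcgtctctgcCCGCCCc

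All 10 markers fixed for adrenergic neuroblastoma were present, with a summed level of 3270 to 3620 FPKM in vehicle cultures and 3460 to 4090 FPKM with CBD. The groups overlapped at 3 h only, so this sum moved with treatment. Single markers were not compared between treatments, and their part in the results was not tested. MYCN was the highest of them (1420 to 2450 FPKM) and DBH the lowest (3.74 to 13.9 FPKM). The 11 markers of other cell types summed to 11.4 to 14.1 FPKM in every culture. Of these, PTPRC (listed for leukocytes), CDH5 (endothelium) and KRT14 (epithelium) were at or near 0. The others were not all so low: EPCAM (epithelium) read 1.57 to 4.61 FPKM, COL1A1 and DCN (fibroblasts) 1.02 to 2.43 and 4.92 to 8.31 FPKM, and CD68 (leukocytes) 0.386 to 0.86 FPKM. Read depth differed 1.53-fold between the deepest and the shallowest sample. Its median relative to all samples was 0.925, 0.962, 0.925 and 0.999 in CBD cultures at 3, 6, 12 and 24 h, against 1.05, 1.05, 1.00 and 1.02 in vehicle cultures, and its part in the results was not tested.

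The levels of the 10 genes covered a wide range in a nearly fixed order. PRDX2 stood highest with a mean of 617 FPKM over the 32 cultures, ahead of PRDX1 at 493 FPKM and SOD1 at 251 FPKM. GPX4 and PRDX3 followed at 129.8 and 129 FPKM, then GPX1 at 67.6, ATOX1 at 51.4, SOD2 at 28.1, CAT at 23.7 and CCS at 15.4 FPKM. Neighbours in this order kept it in 32 of 32 cultures, with 2 exceptions. GPX4 exceeded PRDX3 in 13 of 32 cultures, and their order changed with time. PRDX3 was higher in every culture at 3 h and GPX4 in every culture at 24 h. GPX1 exceeded ATOX1 in 29 of 32 cultures, and the cultures that departed from this were all at 24 h. Cytosolic SOD1 thus stood 8.44 to 9.41 times above mitochondrial SOD2 as a group mean ratio.

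**Figure D1:**
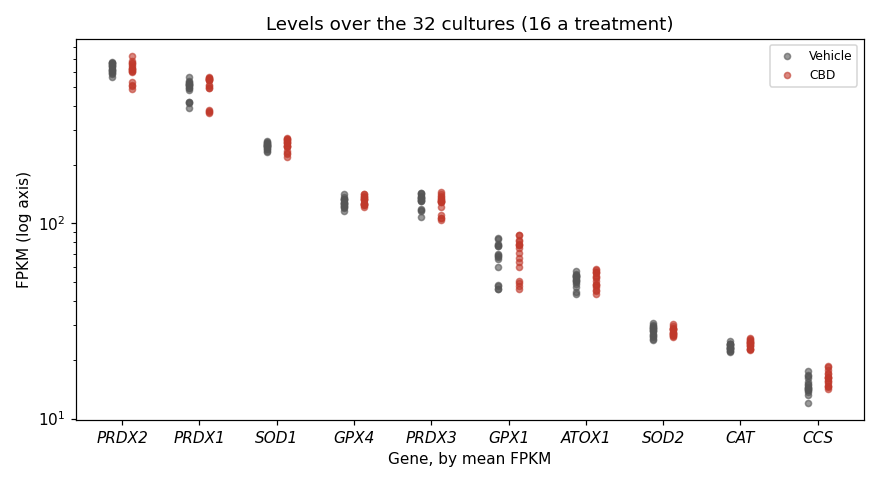
Levels of the 10 genes in all 32 cultures, with FPKM on a log axis and the genes ordered by their mean. Each point is 1 culture, grey for vehicle and red for CBD, and the order runs from PRDX2 at a mean of 617 FPKM to CCS at 15.4 FPKM.

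SOD1 (chr21:33031979-33041244, plus strand of GRCh37) was not called with CBD at any time. In vehicle cultures it read 258, 249, 254 and 246 FPKM at 3 h, 257, 249.9, 253 and 257 FPKM at 6 h, 264, 252, 262 and 247 FPKM at 12 h and 233, 235, 241 and 240.5 FPKM at 24 h. With CBD it read 251, 259, 259.6 and 274 FPKM at 3 h, 264, 273, 262 and 272 FPKM at 6 h, 250.5, 249.8, 248 and 267 FPKM at 12 h and 229, 220.4, 226 and 237 FPKM at 24 h. The CBD cultures lay above every vehicle culture at 6 h, by 5.20% between means, and overlapped them at the other times. On the log2(FPKM + 1) scale, the difference between CBD and vehicle was 0.049 ± 0.027 (SE, n = 4 per group) at 3 h with an adjusted p of 0.292 by limma, and 0.073 ± 0.027 at 6 h with an adjusted p of 0.0634. It was -0.013 ± 0.027 at 12 h, with an adjusted p of 0.783, and -0.058 ± 0.027 at 24 h, with an adjusted p of 0.0763. At 24 h the 95% interval ran from -0.11 to -0.0020. The CBD difference at 24 h minus that at 3 h was -0.11 and missed the threshold (adjusted p = 0.0294). Over the alternatives it ran from -0.13 after median-ratio scaling, where it passed (adjusted p = 0.00734), to 0.0084 after quantile normalization, where its sign turned (adjusted p = 0.865).

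SOD2 (chr6:160090101-160183561, minus strand), the mitochondrial dismutase, was not called with CBD. At 24 h it read 25.2, 26.3, 25.6 and 26.5 FPKM in vehicle and 26.4, 27.4, 26.9 and 27.3 FPKM with CBD, and only the lowest CBD culture lay within the vehicle range. The difference of 0.058 ± 0.025 had an adjusted p of 0.0566, and it passed after quantile normalization (0.079, adjusted p = 0.0058). Of the 50-base words of its transcripts, 9.66% also occur in other genes, among them SOD2-OT1, and its span overlaps WTAP and ACAT2 on the opposite strand.

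CCS (chr11:66360624-66373490, plus strand), which loads copper into SOD1, was the lowest of the 10. It read 14.4, 13.98, 13.1 and 12.1 FPKM in vehicle and 15.5, 14.5, 15.1 and 14.7 FPKM with CBD at 3 h, and 14.5, 14.3, 14.9 and 13.6 FPKM against 15.6, 16.9, 16.3 and 16.1 FPKM at 12 h. Every CBD culture was above every vehicle culture at both times. The differences were 0.15 ± 0.060 at 3 h (adjusted p = 0.127) and 0.17 ± 0.060 at 12 h (adjusted p = 0.0325), neither of them past 0.01. At 24 h the CBD cultures read 18.5, 14.2, 18.4 and 17.7 FPKM, and the second of them was the lowest of all 8 cultures at that time. The 12 h difference passed the threshold when this 24 h culture was left out (0.17, adjusted p = 0.00463), and when the 2 groups were fitted alone (adjusted p = 0.00674). ATOX1 (chr5:151121877-151152093, minus strand), the other chaperone, lay between 43.4 and 58.7 FPKM in all cultures. Its 4 CBD differences ran from -0.078 at 12 h to 0.060 at 3 h, with adjusted p from 0.164 to 0.723.

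Catalase (chr11:34460481-34493607, plus strand) had the narrowest range of the 10, from 22.0 to 25.8 FPKM over all cultures. At 6 h it read 23.9, 23.6, 23.0 and 24.1 FPKM in vehicle and 24.2, 24.8, 25.6 and 25.3 FPKM with CBD. The groups did not overlap, yet the difference of 0.073 ± 0.026 missed the threshold (adjusted p = 0.0453). At the other times the differences were 0.035, 0.028 and 0.043 at 3, 12 and 24 h, with overlapping cultures.

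GPX1 (chr3:49394607-49396038, minus strand), the abundant cytosolic glutathione peroxidase, had the largest change with time of the 10 and was not called with CBD. In vehicle it read 83.8, 83.3, 78.4 and 65.5 FPKM at 3 h and 47.7, 48.1, 46.3 and 45.9 FPKM at 24 h. With CBD it read 87.4, 81.7, 77.7 and 82.3 FPKM at 3 h and 50.7, 46.4, 49.5 and 47.6 FPKM at 24 h. Every 24 h culture lay below every 3 h culture, and the treatments overlapped at both times. Its CBD differences ran from -0.073 at 12 h to 0.13 at 6 h, with adjusted p from 0.196 to 0.622. The interval at 24 h ran from -0.10 to 0.19, and the SD within a group reached 11.0% of the mean. Of its 50-base words, 33.8% also occur in copies such as GPX1P1 and GPX1P2, so its level is uncertain where reads could be placed on either.

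GPX4 (chr19:1103981-1106790, plus strand) reduces lipid hydroperoxides within membranes. At 24 h it read 129, 128, 126 and 124 FPKM in vehicle and 127, 141, 141 and 138 FPKM with CBD, where the first CBD culture lay within the vehicle range and the other 3 above it. The difference of 0.11 ± 0.041 had an adjusted p of 0.0324. It passed without that culture (0.14, adjusted p = 0.007) and after quantile normalization (0.14, adjusted p = 0.00135). The difference at 3 h was similar in size, 0.12 ± 0.041, and was not called either (adjusted p = 0.0785), whereas the values at 6 and 12 h were -0.035 and -0.048.

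**Figure D2:**
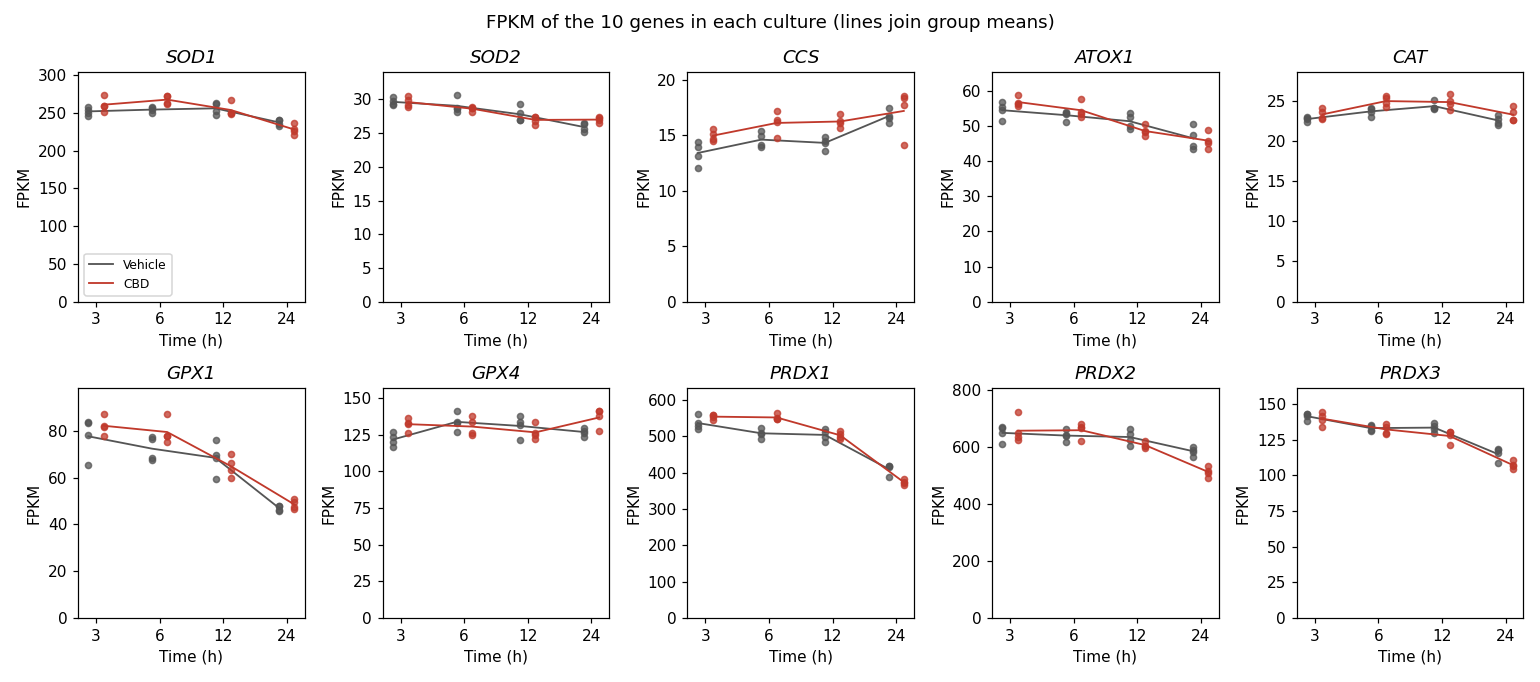
FPKM (vertical axes from 0) of each of the 10 genes against time, with 1 point per culture, grey for vehicle and red for CBD, and lines through the group means. The group means of GPX1, PRDX1 and ATOX1 descend at each step in both treatments. Those of SOD1, SOD2, PRDX2 and PRDX3 are also lower at 24 h than at 3 h in both. The CBD cultures of PRDX1 and PRDX2 lie below all vehicle cultures at 24 h.

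PRDX1 was called at 6 h, when 10.2% of all genes tested were called, and PRDX1, PRDX2 and PRDX3 at 24 h, when 42.1% were. PRDX2 (chr19:12907634-12912614, minus strand), a cytosolic peroxiredoxin, read 565, 600.2, 588 and 583 FPKM in vehicle and 513, 532, 509 and 491 FPKM with CBD at 24 h. All CBD cultures lay below all vehicle cultures, with means of 511 ± 16.9 and 584 ± 14.5 FPKM (SD, n = 4). The difference was -0.19 ± 0.040 (95% interval -0.27 to -0.11, adjusted p = 0.00021), and it passed the threshold under each of the alternatives run. At 3, 6 and 12 h the differences were 0.015, 0.041 and -0.064, none called, with overlapping cultures at each time. The 24 h difference minus that at 3 h was -0.21 (SE 0.056, adjusted p = 0.00453). This comparison lost its call in 5 alternatives, with adjusted p up to 0.0192, 4 of which left out 1 culture (vehicle 3 h replicate 4, vehicle 24 h replicate 2, CBD 3 h replicate 1 or CBD 24 h replicate 4). The gene overlaps HOOK2 on the same strand.

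PRDX1 (chr1:45976586-46008404, minus strand), the other abundant cytosolic peroxiredoxin, was higher with CBD at 6 h and lower at 24 h. At 6 h it read 524, 510.3, 493 and 508 FPKM in vehicle and 547, 566, 550.2 and 547 FPKM with CBD. At 24 h it read 389, 415, 418 and 419.7 FPKM in vehicle and 371, 376, 367 and 383 FPKM with CBD. The groups were separate at both times and in opposite order. The differences were 0.12 ± 0.026 at 6 h (adjusted p = 0.00171) and -0.13 ± 0.026 at 24 h (adjusted p = 0.000103), with 0.047 at 3 h and -0.0026 at 12 h not called. The effect at 24 h minus that at 3 h was -0.18 (SE 0.037, adjusted p = 0.000317). After quantile normalization the 24 h difference was -0.059 (adjusted p = 0.125) and the difference between 24 and 3 h was -0.028 (adjusted p = 0.662), so both calls depend on how the samples are scaled. The 6 h call was lost after quantile normalization (adjusted p = 0.0119), with only the groups compared in the fit (adjusted p = 0.0213), and without vehicle replicate 3 (adjusted p = 0.011) or CBD replicate 2 (adjusted p = 0.0101). PRDX1 overlaps MMACHC on the opposite strand. The methods describe the reads as first stranded, and whether the quantification used strand is not given in the sources used here.

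PRDX3 (chr10:120927232-120938324, minus strand), the mitochondrial peroxiredoxin, read 108, 116, 118 and 118 FPKM in vehicle and 106, 104, 107 and 111 FPKM with CBD at 24 h. The CBD cultures were low and the groups overlapped, since vehicle replicate 1 lay within the CBD range. The difference of -0.10 ± 0.028 passed the threshold (adjusted p = 0.00411), whereas -0.065 at 12 h did not (adjusted p = 0.0841), and the values at 3 and 6 h were -0.018 and -0.0098. The 24 h call was lost in 8 alternatives, with adjusted p from 0.0101 to 0.0589. These were quantile normalization, the fit of the compared groups alone, and leaving out vehicle replicate 2, 3 or 4 or CBD replicate 1, 2 or 3. In bulk RNA, a smaller share of cells expressing a gene and less message per expressing cell cannot be told apart for any of these genes.

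**Figure D3:**
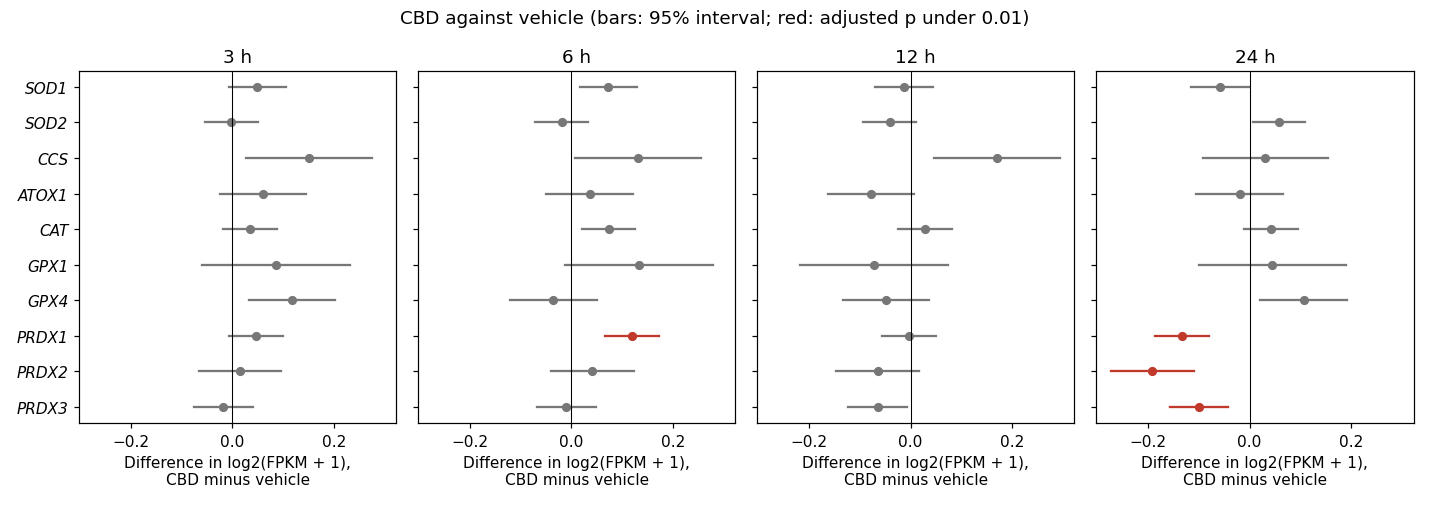
Difference between CBD and vehicle in log2(FPKM + 1) for the 10 genes at 3, 6, 12 and 24 h, with points at the estimate and bars for the 95% interval (n = 4 cultures per group). Red marks the 4 calls, PRDX1 at 6 h and PRDX1, PRDX2 and PRDX3 at 24 h, and the remaining intervals are grey.

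The calls among the 10 enzymes are read here against the share of all genes called, a call being an adjusted p below 0.01. At 3 h none of the 10 was called by limma and 2 had an unadjusted p below 0.05, where 2.46% of the 12621 genes tested were called (1.18% higher and 1.28% lower). At 6 h 1 of 10 was called, higher, against 10.2% of all genes (4.07% higher, 6.13% lower). At 12 h none was called by limma and 2 had an unadjusted p below 0.05, against 20.1% of all genes (8.85% higher, 11.2% lower). At 24 h 3 of 10 were called, all lower as deposited and 1 lower (PRDX2) with 2 higher (SOD2 and GPX4) after quantile normalization, against 42.1% of all genes (20.8% higher, 21.3% lower), and 5 of the 10 differences were above 0. The F-test over the 4 times called 2 of 10, PRDX1 and PRDX2, against 47.2% of all genes. CCS was next, with an adjusted p of 0.01. Cultures did not overlap between treatments for 1, 3, 1 and 2 of the 10 genes at 3, 6, 12 and 24 h, against 9.88%, 19.6%, 30.3% and 51% of all genes. The median difference of the 10 genes was 0.048, 0.057, -0.045 and 0.0058 at these times, and that of all genes lay between -0.0048 and 0.0066. The effect at 24 h differed from that at 3 h for 2 of 10 genes, both lower, against 27.2% of all genes (12.9% higher, 14.3% lower).

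Between 3 and 24 h in vehicle, without CBD, 7 of 10 fell and 1 rose, against 57.8% of all genes called (26.6% higher, 31.1% lower). GPX1 fell by 0.71 on the log2 scale (SE 0.071, adjusted p = 2e-09), to 0.605 of its 3 h mean. PRDX1 fell by 0.39 (adjusted p = 9.27e-13), PRDX3 by 0.30 (adjusted p = 6.63e-10) and ATOX1 by 0.23 (adjusted p = 3.06e-05). SOD2 changed by -0.19 (adjusted p = 3.38e-07) and PRDX2 by -0.15 (adjusted p = 0.00169). The SOD1 change of -0.086 passed narrowly (adjusted p = 0.00773) and was lost in 7 alternatives, with adjusted p up to 0.0325 without vehicle 3 h replicate 1. The others were no filter, quantile normalization, and leaving out vehicle 3 h replicate 2 or 3 or vehicle 24 h replicate 1 or 2. CCS rose by 0.30 (adjusted p = 8.94e-05), so that the mean ratio of SOD1 to its chaperone went from 18.9 ± 1.24 at 3 h to 14.2 ± 0.667 at 24 h in vehicle and from 17.4 ± 1.06 to 13.4 ± 1.54 with CBD (SD, n = 4). CAT (-0.010) and GPX4 (0.060) were not called, but GPX4 was after quantile normalization (0.13, adjusted p = 0.00221), which gave 2 higher and 6 lower. This comparison shares its vehicle cultures with the CBD comparisons at 3 and 24 h.

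With GPX1 falling and GPX4 not, the mean ratio of GPX4 to GPX1 went from 1.58 ± 0.136 to 2.70 ± 0.032 in vehicle and from 1.61 ± 0.117 to 2.82 ± 0.225 with CBD. Summed over the 10 genes, the level went from 1899 ± 61.5 FPKM at 3 h to 1633 ± 34.1 FPKM at 24 h in vehicle. With CBD it went from 1951 ± 42.2 to 1519 ± 11.2 FPKM. As a share of all FPKM the sum went from 0.185% to 0.162% in vehicle and from 0.196% to 0.149% with CBD. PRDX1 and PRDX2 carry most of that sum. Over the 3 peroxiredoxins the 24 h mean was 0.764, 0.901 and 0.812 of the 3 h mean in vehicle for PRDX1, PRDX2 and PRDX3, and 0.674, 0.779 and 0.766 with CBD.

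Across the 32 cultures PRDX1 correlated with PRDX3 (Pearson r = 0.941), GPX1 (r = 0.936) and SOD1 (r = 0.895). With the group means removed these were 0.577, 0.498 and 0.58. The genes most like SOD1 over the 32 cultures were NDUFB6 (r = 0.93), SNRPF (0.923), UBL5 (0.921), PARK7 (0.919) and CRLS1 (0.917). Those most like PRDX2 were OTUB1 (0.974), RNASEH2C (0.972), RIC8A (0.966), FLAD1 (0.965) and GSK3A (0.964). All these values share libraries and scaling and are given as a description.

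The wider pathway was read from 11 lists of 104 genes, of which 80 were tested. These lists too were chosen with earlier results of these data known. With CBD, 6, 12, 12 and 25 of these 80 were higher at 3, 6, 12 and 24 h, while 0, 2, 7 and 10 were lower, to be read against the shares of all genes above. Between 3 and 24 h in vehicle, 12 were higher and 42 lower. The list of glutathione synthesis, glutathione reduction and cystine uptake, which supplies GPX1 and GPX4, had 9 tested genes. Of these, 4 were higher at each of 3, 6 and 12 h and 8 at 24 h, with none lower, and its median difference at 24 h was 0.245 where the median of all genes was -0.0032. The 4 calls at 3 h became 2 after quantile normalization and 1 with only the compared groups in the fit. Paired FPKM in brackets from here on are the vehicle mean and then the CBD mean at the same time. SLC7A11, the cystine carrier of the cystine/glutamate exchanger, was higher with CBD at 24 h (0.667 to 3.53 FPKM, 1.41 ± 0.10, adjusted p = 3.14e-12). It passed the filter on low values through its CBD cultures, since its vehicle means were 1.01 FPKM at 3 h and below 1 FPKM later, so its call is not independent of the filter. Without it the list had 3 of 8 genes higher at 3, 6 and 12 h and 7 of 8 at 24 h. SLC3A2, the partner of SLC7A11, was also higher with CBD at 24 h (46.5 to 81.5 FPKM, 0.79 ± 0.054, adjusted p = 3.45e-12). GCLM, the modifier subunit of the enzyme that opens glutathione synthesis, was higher at 12 h (5.58 to 8.62 FPKM, 0.55 ± 0.030, adjusted p = 1.26e-13), with differences of 0.52 at 6 h and 0.53 at 24 h. GSR, which regenerates reduced glutathione, was higher at 24 h, at 41.4 FPKM against 36.7 FPKM in vehicle (0.17, adjusted p = 2.59e-08).

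In the list on thioredoxin and peroxiredoxin repair, 4 of 13 tested genes were higher and 2 lower at 24 h. At that time 42.1% of all genes were called. TXNRD1, the reductase that recycles thioredoxin, was higher with CBD at 24 h (72.6 to 85.0 FPKM, 0.22 ± 0.020, adjusted p = 6.08e-10). So was SRXN1, which repairs over-oxidised peroxiredoxins (9.07 to 10.4 FPKM, 0.17 ± 0.032, adjusted p = 4.2e-05). The sestrins went apart. SESN2 was higher with CBD at 24 h (1.403 to 3.21 FPKM, 0.78 ± 0.10, adjusted p = 5.88e-07) while SESN1 was lower (4.32 to 3.54 FPKM, -0.23 ± 0.038, adjusted p = 1.73e-05). SESN3 was lower with CBD at 6 h (4.22 to 2.96 FPKM, -0.39 ± 0.063, adjusted p = 5.56e-05). GLRX2, a mitochondrial glutaredoxin, was lower at 24 h (17.1 to 15.5 FPKM, -0.13 ± 0.042, adjusted p = 0.00819), a call lost in 9 alternatives, among them the fit with the replicate number as a block (adjusted p = 0.012). None of the 3 other peroxiredoxins was called by limma at 24 h, although 1 was after median-ratio scaling or with only the compared groups fitted, and PRDX4, that of the endoplasmic reticulum, was lower at 12 h (144 to 131 FPKM, -0.13 ± 0.034, adjusted p = 0.0037), a call lost in 6 alternatives. Of the 6 other glutathione peroxidases 2 were tested and neither was called. SOD3, the extracellular dismutase, was listed at a mean of 0.0013 FPKM and was not tested.

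Lipid peroxidation genes around GPX4 gave 6 higher and 1 lower of 8 tested at 24 h, against 42.1% of all genes called. FTH1, the ferritin heavy chain that stores iron, was higher with CBD at 24 h (477 to 719.9 FPKM, 0.59 ± 0.029, adjusted p = 3.19e-15). TFRC, the transferrin receptor that takes iron up, was lower with CBD at 12 h (72.8 to 46.0 FPKM, -0.65 ± 0.028, adjusted p = 1.13e-15). ACSL4 (17.3 to 23.5 FPKM, 0.42 ± 0.047, adjusted p = 2.97e-08) and LPCAT3 (8.08 to 10.9 FPKM, 0.39 ± 0.043, adjusted p = 2.51e-08), which build polyunsaturated phospholipids, were higher with CBD at 24 h. In the copper list, 3 of 10 tested genes were higher and 1 lower at 24 h, against 42.1% of all genes called. COX17, a copper chaperone of cytochrome oxidase, was higher with CBD (233 to 281 FPKM, 0.27 ± 0.040, adjusted p = 3.8e-06). So were CUTC (17.4 to 21.1 FPKM, 0.26 ± 0.032, adjusted p = 9.29e-08) and CUTA (205 to 241 FPKM, 0.23 ± 0.042, adjusted p = 4.58e-05). SCO2, another assembly factor of that oxidase, was lower (18.1 to 14.3 FPKM, -0.32 ± 0.051, adjusted p = 8.11e-06). The copper importer SLC31A1 was not called with CBD at any time, with differences from -0.039 to 0.020.

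**Figure D4:**
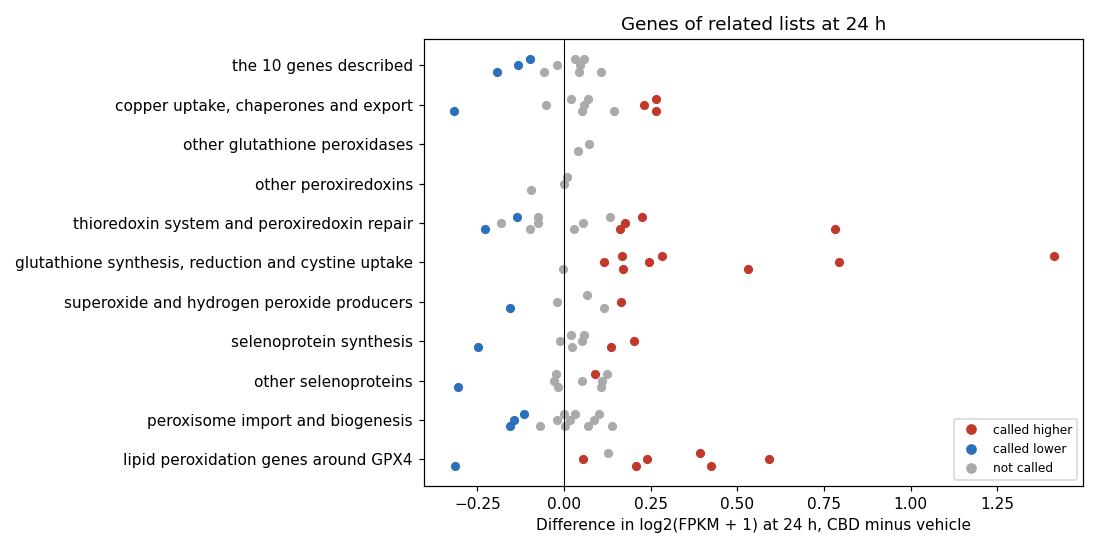
Difference between CBD and vehicle in log2(FPKM + 1) at 24 h for the 10 genes and the tested genes of the lists, 1 point per gene, red for called higher, blue for called lower and grey for not called. In the glutathione list 8 of 9 genes are called higher and the uncalled point lies just left of 0, while the called points of the 10 enzymes lie to the left (after quantile normalization 2 of 3 lie to the right).

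The remaining lists are given with the 42.1% of all genes called at 24 h as background. Of 13 peroxisome genes 3 were lower at 24 h and 5 were called after quantile normalization. Among them were the import and biogenesis factors PEX19 (-0.14) and PEX3 (-0.12), the last lost in 7 alternatives. Of 8 genes for selenoprotein synthesis, which GPX1 and GPX4 require, 2 were higher and 1 lower at 24 h, with 1 called after median-ratio scaling and 5 after quantile normalization. PSTK (0.20) and EEFSEC (0.14) were higher at 24 h and SEPSECS (0.12) at 6 h, calls lost in 7, 6 and 5 alternatives, and TRNAU1AP was lower at 24 h (8.87 to 7.31 FPKM, -0.25 ± 0.027, adjusted p = 2.55e-08). Among 9 other selenoproteins, SEPW1 was higher at 6 h (0.25) and VIMP at 12 h (0.11, lost in 3 alternatives), while MSRB1, a methionine sulfoxide reductase, was lower at 24 h (-0.31), when 2 were called (1 after median-ratio scaling). Of 18 producers of superoxide or hydrogen peroxide 5 were tested. AOX1, an oxidase, was higher at 24 h (0.16) and MAOA, a monoamine oxidase, lower at 12 h (-0.21). The 2 calls at 24 h were AOX1 and MAOA. With means of 2.07 and 2.91 FPKM, both went untested under a filter at a mean FPKM of at least 5.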

How the data were processed

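Polyadenylated RNA of 32 cultures was sequenced as single reads of 50 bases over 7 lanes. The labels name a Nugen kit and the study's methods a TruSEQ kit. According to the methods and the submitters' processing notes, the authors trimmed reads with Trimmomatic 0.36, removed reads under 35 bases, aligned them to hg19 with TopHat (TopHat2 2.2.1 in the notes; 2 mismatches, up to 2 locations) and computed FPKM per sample with Cufflinks. These deposited FPKM carry no absolute depth, so no counting interval was given, and relative depth (0.787 to 1.20) was estimated from the steps of low values in 1414 genes. A deposited Cuffdiff table of the authors' own comparisons (log2 fold changes and q-values) was not used.

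FPKM were transformed to log2(FPKM + 1), and the 12621 entries averaging 1 FPKM or more were fitted with 8 group means in limma 3.58.1 (R 4.3.3; lmFit, contrasts.fit, eBayes with trend). P-values were two-sided and Benjamini-Hochberg adjusted over all genes within a comparison, with a threshold of 0.01. Tested on simulated data for the 24 h comparison over 12621 genes, the fit recovered 56% of 200 genes changed by 0.2 and 91.5% of 200 changed by 0.5 on the log2 scale. Each simulation changed 200 genes only, whereas 42.1% of all genes were called at 24 h in the data. A call depends on that share through the adjustment, so these percentages do not give the recovery in the data.

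All 10 genes are named. Of each list, up to 3 higher and 3 lower called genes with the largest difference are named (GSR, SLC31A1 and SOD3 were added after their values were seen), and for SOD1 and the gene with the largest called CBD difference the 5 most correlated genes. Some genes that this rule names are not reported here. The members and lists were chosen with earlier results of these data known. Positions are from the GENCODE annotation of GRCh37 and promoters from RefSeq on GRCh38.p14. Figures and sequences were made with Python 3.11.15. Alternatives changed the added constant, the filter, the scaling, the trend, the threshold and the samples fitted, added the replicate block, or left out 1 culture.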

Additional observations from a re-analysis of the deposited data

Results flagged for a closer look

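In 4 of 80 groups of 4 cultures, 1 culture lay far from the other 3 by Dixon's ratio, where chance alone gives about 1 in 20 groups. SOD1 read 266.9 FPKM in CBD 12 h replicate 4 against 248 to 250.5 FPKM in the others. SOD2 read 28.2 FPKM in CBD 6 h replicate 4 against 28.7 to 28.9 FPKM. CAT read 25.1 FPKM in vehicle 12 h replicate 1 against 24.0 to 24.1 FPKM. PRDX1 read 389 FPKM in vehicle 24 h replicate 1 against 415 to 419.7 FPKM, which lies toward the CBD cultures of that time.

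In a test of the difference itself (limma, 4 cultures per group), the CBD effect at 24 h differed from that at 3 h for 2 of 10 members. The share of all genes called in this comparison was 27.2%. For PRDX1 the effect at 24 h minus that at 3 h was -0.18 on the log2 scale, with an adjusted p of 0.000317. After quantile normalization it was -0.028 (adjusted p = 0.662). For PRDX2 it was -0.21, with an adjusted p of 0.00453, a call lost in 5 alternatives with adjusted p up to 0.0192.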

How the results depend on the processing

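Of 2520 comparisons of a member's value with an alternative, 2487 kept their side of the threshold, 26 lost the call and 7 gained one. No called value changed sign, while 35 of the 1925 that were uncalled both ways did. Members called with CBD at 6 h numbered 1, but 0 after quantile normalization, 0 with only the groups compared and 2 at a threshold of 0.05, and from 0 to 1 with 1 culture left out. At 12 h they numbered 0, but 1 with only the groups compared and 1 at 0.05, and from 0 to 1 with 1 culture left out. At 24 h leaving out 1 culture gave from 2 to 3, where 3 were called. With only the groups compared PRDX3 lost its call (limma adjusted p = 0.0309), and at a threshold of 0.05 GPX4 joined (limma adjusted p = 0.0324). The F-test called 2, but 5 after median-ratio scaling and 7 at 0.05, and from 2 to 4 with 1 culture left out. For the effect at 24 h against 3 h, 2 became 3 after median-ratio scaling, 1 after quantile normalization and 1 with only the groups compared. With 1 culture left out it was from 1 to 2. The vehicle time comparison called 8, and from 7 to 8 with 1 culture left out. Its SOD1 call was also lost without the filter (limma adjusted p = 0.0102). Genes of the lists called at 3 h went from 6 to 2 with only the groups compared, and at 6 h from 14 to 9 with a mean FPKM of at least 5. Under that filter SESN2, SESN3, SLC7A11, SEPSECS and AIFM2, all called at 6 h, averaged too low to be tested. Across all genes, fitting only the compared groups called 26 at 3 h against 310 and 405 at 6 h against 1288; it uses fewer samples.

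Same-numbered CBD and vehicle cultures of a time did not deviate together over all genes (r from -0.076 to 0.094 over 16 pairs, and 5 of 16 highest with their own number). Cultures of different times were not compared in this way, so it cannot show whether a number marks a shared day or plate. With the replicate block, members called were 0, 1, 0 and 3 at 3, 6, 12 and 24 h, 3 by the F-test, 2 for 24 h against 3 h and 8 for vehicle time. Low genes depend on the added constant: the 24 h difference of SLC7A11 was 2.196 with 0.1 added and 0.58 with 5 added, and that of SESN2 1.096 and 0.35. Absolute depth is unknown from FPKM, and quantile normalization changed the split of calls among members at 24 h. Small differences can be missed at 4 cultures a group. In a simulation that changed 200 genes, those of 0.2 were recovered only in part, and recovery in the data was not measured. The cause of these changes was not tested.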
